A study of Homo sapiens with 22 samples.

Results

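The binding sites of JUN in PC3 and LNCaP cells were compared, list against list, and sorted into sites called in PC3 alone, in LNCaP alone or in both lines. PC3 cells derive from a bone metastasis and lack the androgen receptor, whereas LNCaP cells express the receptor and keep features of luminal prostate cells. Both were cultured in RPMI-1640 with serum and transfected with a control siRNA (siNC), and JUN was recovered by ChIP-seq with an antibody from CST, so that each list holds the places where DNA bound by JUN was enriched. The PC3 list held 23890 regions and the LNCaP list 2421, out of 871377 regions in the 22 lists of the series, and all coordinates are on the hg19 build. A region that was overlapped in 17 or more of the 22 lists was set aside, since it was found whatever the factor, and such recurrent places made up 1.62% of the PC3 list and 15.8% of the LNCaP list. The 25542 regions left, 23504 in PC3 and 2038 in LNCaP, are described here. A PC3 region that overlapped a LNCaP region by at least 1 bp was called common, and the others were called PC3-only or LNCaP-only.

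There was 1 list for each line, so the difference between the lines has no replicate check and no p-value was computed. The lists give no read totals, and the depth behind them is unknown. The names of the regions carry an analysis folder, which differed between the JUN lists of PC3 and LNCaP, and the folder and the cell line cannot be told apart. PC3 regions carry a score from the authors, read as 10 times the −log10 q-value, whereas the LNCaP siNC list carries none. Shares are given with Wilson 95% intervals and differences between shares in percentage points with Newcombe 95% intervals, and both cover counting error only, because regions of 1 list are not replicates. Other lists used are PC3 ATAC-seq, H3K27ac and FOXA2 under vehicle, 2 other FOXA2 ChIPs of PC3 whose antibody was not labelled, FOSL1 of PC3 siNC, JUN of PC3 after knockdown of FOXA2 (siFOXA2), JUN of LNCaP after knockdown of FOXA1 (siFOXA1), JUN of LNCaP cells stably expressing FOXA2 (FOXA2OE) or titled FOXA2K265R (another label of that sample names the FOXA2OE line), and JUN and ATAC-seq of NCI-H660, a neuroendocrine prostate cancer line. Accessible chromatin of LNCaP was not analysed here.

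JUN is a subunit of AP-1, a family of dimers of JUN, FOS and ATF proteins that stress, growth factors and inflammatory signals switch on. Dimers of JUN with FOS proteins prefer the TRE, whose letters are TGACTCA and whose other strand reads TGAGTCA. Dimers of JUN with ATF proteins, and CREB dimers, prefer the CRE, TGACGTCA, which reads the same on both strands. FOXA1 and FOXA2 are forkhead pioneer factors, which can bind closed chromatin and open it for other factors. LNCaP is known for FOXA1, and PC3 is used in the study as a model with FOXA2. ATAC-seq marks accessible DNA, and H3K27ac is a histone mark of active promoters and enhancers.

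Example windows are shown on the plus strand of hg19 with each TRE and CRE in capitals. They lie around the motif, or around the region centre where no TRE or CRE lay near it. Windows at genes of the lists below were picked because they hold a motif, so they do not show how frequent it was. The PC3-only windows are the highest-scoring one of all, nearest to NRP1 (chr10:33423134-33423224), and one in the gene of the AP-1 subunit FOSL1 (chr11:65666815-65666905). Both hold a TRE.
NRP1: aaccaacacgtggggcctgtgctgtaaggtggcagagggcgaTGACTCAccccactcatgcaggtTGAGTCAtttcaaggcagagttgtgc
FOSL1: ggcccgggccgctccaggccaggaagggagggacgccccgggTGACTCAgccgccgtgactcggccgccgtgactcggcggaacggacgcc
The common windows stand for the 3 kinds of common region, those with a TRE, those with a CRE and those with neither. They lie at the promoter of the luminal keratin gene KRT8 (chr12:53343677-53343767), upstream of ATF3 (chr1:212732365-212732455), at the promoter of JUND (chr19:18392584-18392674) and in an intron of GULP1 (chr2:189163865-189163955). The ATF3 window holds both a TRE and a CRE, and the GULP1 window belongs to the highest-scoring common region, in which a single 10-base word recurred 7 times.
KRT8: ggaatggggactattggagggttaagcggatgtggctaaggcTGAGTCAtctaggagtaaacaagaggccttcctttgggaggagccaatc
ATF3: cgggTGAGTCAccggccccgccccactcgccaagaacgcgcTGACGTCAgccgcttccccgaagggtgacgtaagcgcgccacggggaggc
JUND: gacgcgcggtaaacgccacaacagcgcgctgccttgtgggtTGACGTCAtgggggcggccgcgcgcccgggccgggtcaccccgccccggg
GULP1: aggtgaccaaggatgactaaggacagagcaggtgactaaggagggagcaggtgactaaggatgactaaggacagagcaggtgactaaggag
The LNCaP-only windows show a CRE beside ZFP36 (chr19:39900129-39900219), a TRE between the kallikrein genes (KLK2, chr19:51400033-51400123), and a repeat without either motif that is nearest to LCOR (chr10:98561396-98561486).
ZFP36: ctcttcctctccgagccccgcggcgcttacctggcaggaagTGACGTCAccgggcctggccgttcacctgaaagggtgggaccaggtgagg
KLK2: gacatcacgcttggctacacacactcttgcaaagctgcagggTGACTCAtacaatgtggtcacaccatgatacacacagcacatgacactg
LCOR: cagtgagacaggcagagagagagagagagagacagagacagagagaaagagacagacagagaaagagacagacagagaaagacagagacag

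Of the PC3 regions, 1107 of 23504 were common (4.71%, 4.45 to 4.99%), and 22397 were PC3-only. Of the LNCaP regions, 1110 of 2038 were common (54.5%, 52.3 to 56.6%), and 928 were LNCaP-only, of which 7 overlapped a recurrent place of the PC3 list. The LNCaP list was thus mostly contained in the PC3 list, which was far longer. When only the 2038 highest-scoring PC3 regions were taken, as many as LNCaP had, the common share was 9.13% on each side (7.95 to 10.5%). On the PC3 side that share exceeded the 4.71% of the whole list. The cut leaves out most PC3 regions of any class, so the fall on the LNCaP side follows in part from its size. By decile of the PC3 score the common share was 2.55% in the lowest (1.99 to 3.27%), between 3.36% and 5.96% in the middle ones and 9.32% in the highest (8.21 to 10.6%). The median score was 202 for common regions and 146 for PC3-only regions.

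The common class was not of 1 kind. After the classes had been inspected, it was split by the FOXA2 list of FOXA2OE LNCaP cells, which holds 2500 intervals and no score. Forkhead motifs were not in excess in the common and LNCaP-only regions it overlapped, and whether this list marks FOXA2 binding was not tested, so its regions are described only as members of a list. The list overlapped 406 of the 1107 common regions (36.7%) and 225 of the 928 LNCaP-only regions (24.2%), but 334 of the 22397 PC3-only regions (1.49%). The regions inside it had almost no AP-1 motif, as described next, and 55 of the 58 LNCaP-only regions on chromosome Y were among them. A single 8-base word recurred 4 or more times in the window of 39.6% of the LNCaP-only regions inside that list (33.4 to 46.1%) and of 6.40% of those outside it (4.82 to 8.46%). The common regions inside that list lay in a median of 14 of the 22 lists, below the 17 set for recurrent places. Those outside it lay in a median of 10. Results are therefore given for all regions and for the regions outside that list, which were 701 common, 703 LNCaP-only and 22063 PC3-only regions. Outside it 49.96% of the LNCaP regions (702 of 1405) and 3.08% of the PC3 regions (701 of 22764) were common.

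**Figure D1:**
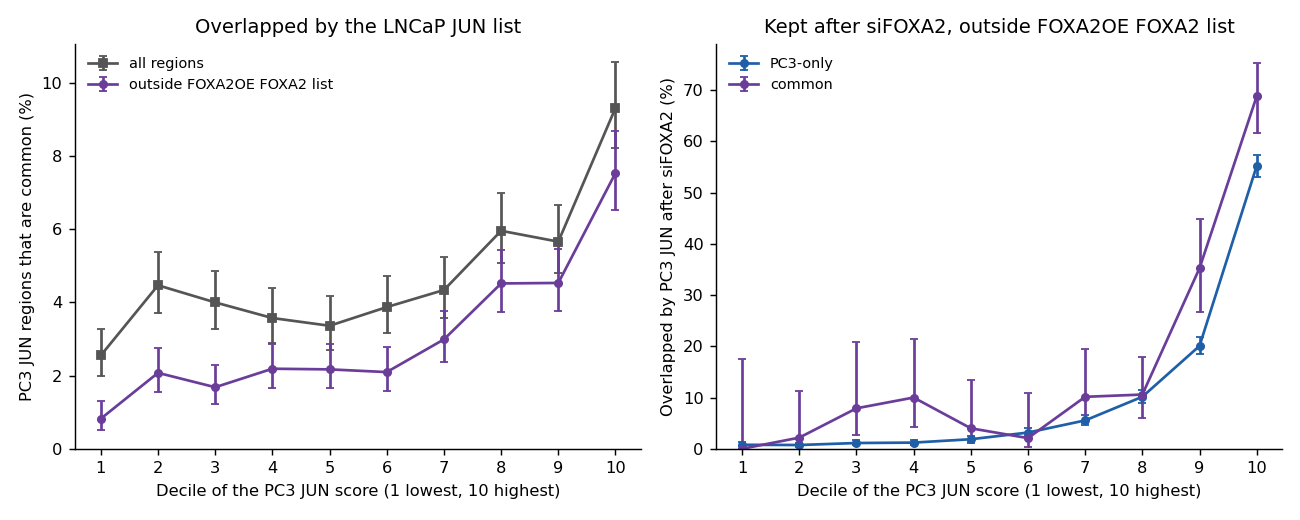
Left, share of PC3 JUN regions that were common (y axis, %) in each decile of the PC3 JUN score (x axis, 1 lowest), for all regions (squares) and outside the FOXA2OE FOXA2 list (circles). Right, share overlapped by the PC3 JUN list after siFOXA2 (y axis, %) for PC3-only and common regions outside that list; bars are Wilson 95% intervals, and both panels rise in the highest decile, to 9.32% and 7.54% on the left and to 55.2% and 68.8% on the right.

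Most sites of PC3 and the common sites outside the FOXA2OE FOXA2 list held a TRE, whereas LNCaP-only sites held one less often and held a CRE more often. The AP-1 motif (TRE) lay within 100 bp of the centre in 49.1% of all regions of the 3 classes. The share was 50.9% in PC3-only regions (50.3 to 51.6%), 36.8% of common regions (34.0 to 39.7%) and 18.8% of LNCaP-only regions (16.4 to 21.4%). Windows 2 kb to either side held it in 2.50 to 3.37%, all windows of the genome in 3.07% and the centres of all PC3 ATAC regions in 16.9%. Each class was thus above its surroundings, and PC3-only regions exceeded LNCaP-only regions by 32.2 points (29.5 to 34.7).

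The order of PC3-only and common regions depended on the FOXA2OE FOXA2 list. Outside that list a TRE was present in 57.5% of common regions (53.8 to 61.1%), 51.7% of PC3-only regions and 23.3% of LNCaP-only regions (20.4 to 26.6%). Inside it the share was 0.985% of common regions, 2.70% of PC3-only regions and 4.44% of LNCaP-only regions. Common minus PC3-only was therefore −14.2 points over all regions (−17.0 to −11.2) and 5.83 points outside the list (2.08 to 9.50). Looked at from the LNCaP side, outside the list 72.3% of the 591 LNCaP regions with a TRE were common (68.5 to 75.7%), against 33.8% of the 814 without (30.6 to 37.1%). For PC3 regions outside the list the corresponding shares were 3.42% with a TRE and 2.72% without.

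The TRE lay at the centre of the regions. Outside the FOXA2OE FOXA2 list the central 20-bp bin held a TRE in 14.8% of common, 11.7% of PC3-only and 5.69% of LNCaP-only regions, and the bins at 240 bp held one in at most 1.14%. The motif was therefore centred in LNCaP-only regions too, at a lower height.

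**Figure D2:**
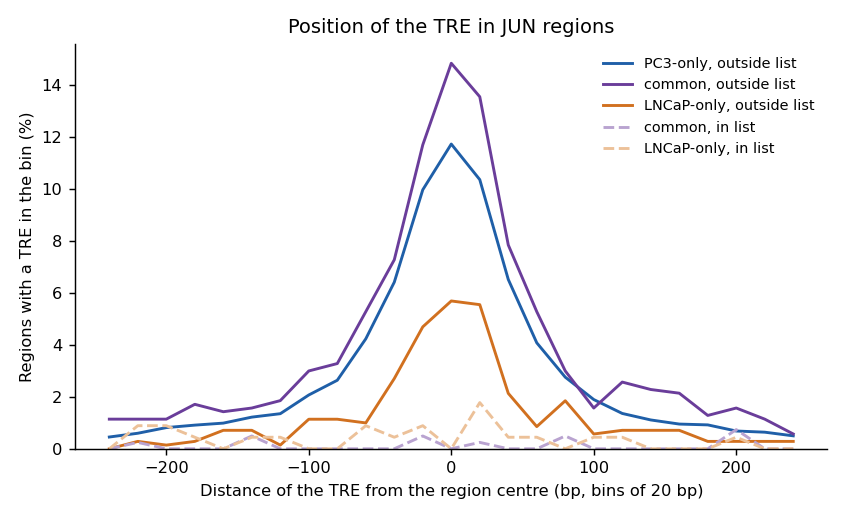
Share of regions with a TRE in each 20-bp bin (y axis, %) against the distance of the TRE from the region centre (x axis, bp), for the 3 classes outside the FOXA2OE FOXA2 list (solid lines) and for common and LNCaP-only regions inside it (dashed lines). The solid lines peak at the centre, at 14.8% for common, 11.7% for PC3-only and 5.69% for LNCaP-only regions, and the dashed lines have no such peak.

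The CRE ran the other way. It was present in 0.921% of all regions of the 3 classes, 0.527% of PC3-only regions (0.440 to 0.631%), 3.79% of common regions (2.82 to 5.09%) and 7.004% of LNCaP-only regions (5.53 to 8.83%), against 0.0698% of all windows of the genome and 0.238% of PC3 ATAC centres. LNCaP-only regions exceeded PC3-only regions by 6.48 points (5.003 to 8.305), and by 8.58 points outside the FOXA2OE FOXA2 list (6.67 to 10.9). A large part of these sites were promoters, that is, regions reaching within 1 kb of the start of a protein-coding transcript. Among promoter regions a CRE was present in 34 of 98 LNCaP-only regions (34.7%, 26.0 to 44.5%), 30 of 143 common regions (20.98%, 15.1 to 28.4%) and 73 of 1866 PC3-only regions (3.91%, 3.12 to 4.89%). The TRE was present at 8.16%, 38.5% and 36.6% of the same promoters. Away from promoters the CRE remained more frequent in LNCaP-only regions (3.73%) than in PC3-only regions (0.219%).

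The promoters with a CRE belonged to genes of many kinds. Among the LNCaP-only ones were TEAD1 (a transcription factor partner of YAP), NF1 (a negative regulator of RAS), HSP90AB1 (a chaperone), PRC1 (a protein of the mitotic spindle), FAT1 (a cadherin) and DUSP8 (a phosphatase of MAP kinases). Among the common ones were JUND, DUSP1, RCAN1 (an inhibitor of calcineurin), BTG3, CCNI and the histone genes H4C5 and H4C8. All these names were picked after the regions had been seen.

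The forkhead motif, searched as TATTTAC or TATTTAT or TATTTGC or TATTTGT or TGTTTAC or TGTTTAT or TGTTTGC or TGTTTGT on both strands, differed little between the classes. It was present in 43.9% of PC3-only, 38.9% of common and 36.5% of LNCaP-only regions, and outside the FOXA2OE FOXA2 list in 44.2%, 43.5% and 42.1%. The difference of PC3-only and LNCaP-only regions was 7.39 points over all regions (4.17 to 10.5) and 2.05 points outside that list (−1.69 to 5.71), an interval that includes 0. Windows 2 kb away held the motif in 33.7%, 30.4% and 32.8% of cases outside the list, so each class was above its surroundings. Inside the list the shares were 31.0% for common and 19.1% for LNCaP-only regions, against 36.3% and 23.3% of the nearby windows, so there was no excess of the motif. The SP motif GGGCGGGG, which binds SP and KLF factors at promoters, was present outside the list in 8.13% of common, 4.27% of LNCaP-only and 2.48% of PC3-only regions, and in 3.20% of PC3 ATAC centres. RUNX (TGTGGTT) was present outside the list in 6.23% of PC3-only regions and 3.13% of LNCaP-only regions, a difference of 3.10 points (1.504 to 4.201). In all 15 motifs were searched.

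**Figure D3:**
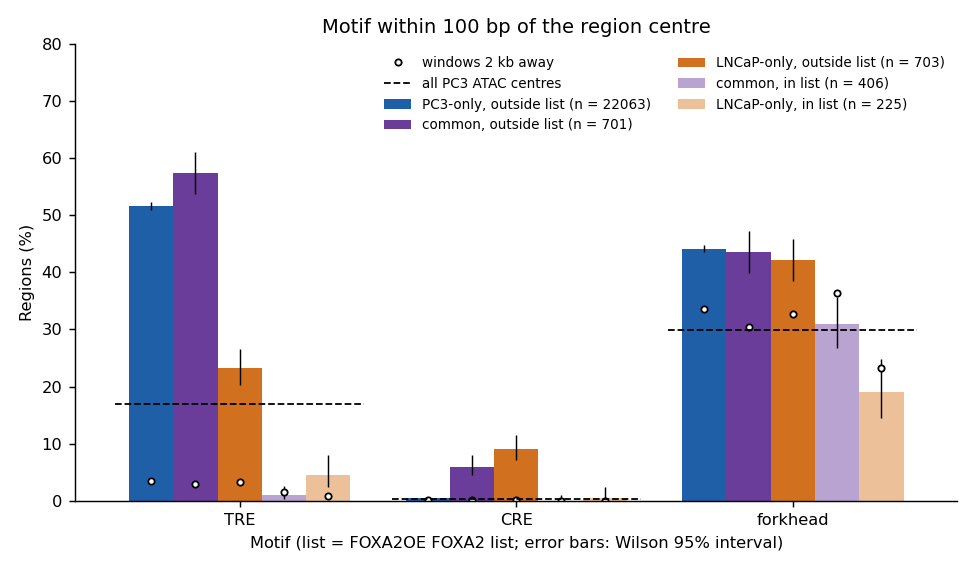
Share of regions with a motif within 100 bp of the centre (y axis, %) for the TRE, the CRE and the forkhead motif (x axis), by class outside and inside the FOXA2OE FOXA2 list; bars carry Wilson 95% intervals, circles are windows 2 kb away and dashed lines are all PC3 ATAC centres. The TRE stands at 57.5%, 51.7% and 23.3% for common, PC3-only and LNCaP-only regions outside the list, the CRE at 5.99%, 0.526% and 9.10%, and the forkhead bars outside the list lie between 42.1% and 44.2%.

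About as many LNCaP-only sites were accessible in PC3 as were not, and fewer carried H3K27ac there, whereas nearly all PC3-only sites were accessible. Over all regions of the 3 classes 94.4% overlapped a PC3 ATAC region and 75.1% a PC3 H3K27ac region. ATAC overlapped 96.4% of PC3-only (96.2 to 96.6%), 87.4% of common (85.4 to 89.3%) and 53.3% of LNCaP-only regions (50.1 to 56.5%), and the same windows moved by 10 kb overlapped it in 6.09 to 7.57%. LNCaP-only regions were thus accessible in PC3 far above the surrounding DNA although JUN was not called there, and their median ATAC score where accessible was 348, against 981 for PC3-only and 1085 for common regions. PC3-only minus LNCaP-only was 43.1 points (39.9 to 46.3). Outside the FOXA2OE FOXA2 list 98.9% of common regions were accessible, against 67.7% inside it, so that the deficit of common against PC3-only regions (−8.96 points over all regions) turned to 1.85 points outside it (0.735 to 2.46).

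H3K27ac overlapped 77.1% of PC3-only (76.6 to 77.7%), 74.3% of common (71.7 to 76.8%) and 27.6% of LNCaP-only regions (24.8 to 30.6%), with moved windows at 5.23 to 7.23%. Outside the list the common share was 83.0% and the LNCaP-only share 28.4%. PC3-only exceeded LNCaP-only regions by 49.5 points (46.5 to 52.4). The 433 LNCaP-only regions that were not accessible in PC3 held a TRE in 14.1% and a forkhead motif in 38.6%, and 306 of them were accessible in neither PC3 nor NCI-H660.

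FOXA2 of PC3 was called less often at LNCaP-only sites than at the other sites in each of the lists compared, while the order of common and PC3-only sites depended on the FOXA2 list. The vehicle FOXA2 list overlapped 42.7% of all regions of the 3 classes, with 63.9% of common (61.0 to 66.6%), 42.6% of PC3-only (42.0 to 43.3%) and 19.6% of LNCaP-only regions (17.2 to 22.3%). Outside the FOXA2OE FOXA2 list the shares were 49.4%, 42.4% and 13.9%. Common minus PC3-only was 21.3 points over all regions (18.3 to 24.1) and 6.98 points outside that list (3.23 to 10.7). In the 2 other FOXA2 ChIPs of PC3, the first of which overlapped 65.3% of all regions of the 3 classes, the order of these classes turned, with 68.0% and 62.7% of PC3-only regions and 47.2% and 44.4% of common regions. The turn came with the regions inside the FOXA2OE FOXA2 list, of which the vehicle list overlapped 88.9% in the common class and the other 2 lists 7.64% and 7.39%. Outside it the first of the other lists gave 70.2% for common and 68.8% for PC3-only regions, a difference of 1.40 points (−2.14 to 4.73).

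Where vehicle FOXA2 was called, the sites had more forkhead motifs and, in the PC3-only class, fewer TREs. Outside the FOXA2OE FOXA2 list, PC3-only regions overlapped by vehicle FOXA2 held a forkhead motif in 65.9% and a TRE in 43.4%, and those without FOXA2 in 28.1% and 57.7%. Common regions with FOXA2 held them in 68.8% and 56.4%, and those without in 18.9% and 58.6%. Over all common regions the TRE shares were 28.15% with vehicle FOXA2 (24.96 to 31.6%) and 52.0% without (47.1 to 56.9%), so the near equality held only outside that list. By the other FOXA2 ChIPs the order in the common class turned. The first overlapped 73.2% of common regions with a TRE and 32.1% of those without, and 73.7% and 65.4% outside the FOXA2OE FOXA2 list. In the PC3-only class it kept the vehicle order, with 65.0% of regions with a TRE and 71.1% of those without. CRE sites mostly lacked vehicle FOXA2, which overlapped 6 of the 118 PC3-only, 3 of the 42 common and 3 of the 65 LNCaP-only regions with a CRE (5.08%, 7.14% and 4.62%). The first of the other FOXA2 ChIPs overlapped 23.7%, 26.2% and 9.23% of the same regions.

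FOSL1, a FOS family partner of JUN, was called at 9.43% of all regions of the 3 classes in PC3, but its list is short. It overlapped 42.9% of common (40.0 to 45.8%), 7.57% of PC3-only and 14.4% of LNCaP-only regions (12.3 to 16.9%). Away from the FOXA2OE FOXA2 list it overlapped 20.5%, 7.08% and 5.41%, and common regions exceeded PC3-only regions by 13.5 points (10.6 to 16.6). Inside it 81.5% of common regions were overlapped although 0.985% of them held a TRE. These regions recurred across factors and lines, with 88.9% in vehicle FOXA2 of PC3, 70.2% in NCI-H660 JUN and 81.3% in LNCaP siFOXA1 JUN. Whether their overlap marks AP-1 binding was not tested.

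**Figure D4:**
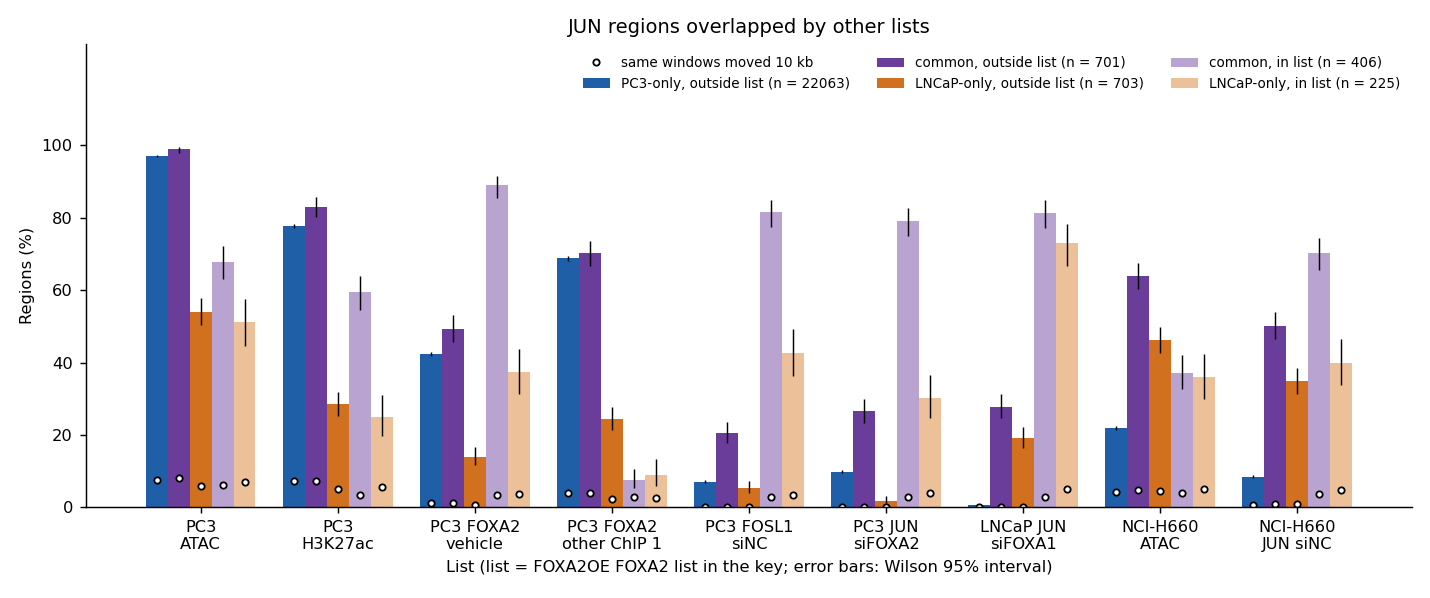
Share of regions overlapped by 9 other lists (y axis, %; x axis, list), by class outside and inside the FOXA2OE FOXA2 list; bars carry Wilson 95% intervals and circles are the same windows moved by 10 kb. Outside that list PC3 ATAC overlaps 97.0% of PC3-only, 98.9% of common and 54.1% of LNCaP-only regions, and the pale bars of common regions inside it stand at 88.9% for vehicle FOXA2 and at 7.64% for the other FOXA2 ChIP.

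Knockdown of FOXA2 in PC3 asks whether JUN binding rests on FOXA2, and the comparison here is whether sites that LNCaP also uses were called again after it. The siFOXA2 JUN list held 4081 regions, against 23890 for siNC, which limits the share that could be called again. It overlapped 45.8% of common regions (42.9 to 48.7%) and 10.3% of PC3-only regions (9.93 to 10.7%), a difference of 35.5 points (32.5 to 38.5). Standardised over 10 score deciles the difference over all regions was 31.9 points. The common regions of the FOXA2OE FOXA2 list, which recurred across factors and lines, were overlapped in 79.1%. Outside that list the shares were 26.5% (23.4 to 29.9%) and 9.79%, a difference of 16.7 points (13.6 to 20.1), and with the same standardisation it was 5.16 points (3.05 to 7.27). In the highest decile 68.8% of common (61.5 to 75.2%) and 55.2% of PC3-only regions (53.1 to 57.3%) were called again, and in the lowest 0 of 18 and 0.784%. Common regions were chosen for being called in both lines, so a higher share in a further list may follow in part from the class rule.

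JUN of LNCaP after siFOXA1, the nearest thing to a second LNCaP list, overlapped 47.4% of common (44.5 to 50.4%), 32.2% of LNCaP-only (29.3 to 35.3%) and 0.973% of PC3-only regions. Without the regions of that FOXA2OE list the shares were 27.8%, 19.2% and 0.553%. Most LNCaP sites outside that list, common or not, were thus not called in the other LNCaP list, and LNCaP-only regions were 8.61 points below common ones (4.18 to 13.01). Common regions outside the list that were called again after siFOXA1 held a forkhead motif in 22.1% (16.8 to 28.4%), and those not called again in 51.8% (47.4 to 56.1%), while the TRE shares were 59.0% and 56.9%. Over all common regions the forkhead shares were 28.2% and 48.6%, and the TRE shares were 22.5% (19.1 to 26.2%) and 49.7% (45.6 to 53.7%). LNCaP-only regions outside the list had forkhead shares of 25.9% (19.3 to 33.9%) and 45.9% (41.9 to 50.1%) and TRE shares of 22.2% and 23.6%, and over all LNCaP-only regions the TRE shares were 13.04% (9.69 to 17.3%) and 21.5% (18.4 to 24.8%).

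JUN lists of cells with added FOXA2 and of NCI-H660 overlapped common and LNCaP-only sites more often than PC3-only sites. JUN of FOXA2OE cells overlapped 2.85% of PC3-only, 15.4% of common and 13.7% of LNCaP-only regions, and the longer FOXA2K265R JUN list overlapped 6.68%, 31.7% and 35.1%. Outside the FOXA2OE FOXA2 list JUN of FOXA2OE cells overlapped 2.81%, 22.25% and 13.4%. The FOXA2K265R JUN list overlapped 6.56%, 45.5% and 36.0% there, so its order of common and LNCaP-only regions turned. JUN of NCI-H660 overlapped 12.3% of all regions of the 3 classes, with 9.07% of PC3-only, 57.5% of common (54.6 to 60.4%) and 36.1% of LNCaP-only regions (33.1 to 39.2%), and NCI-H660 ATAC overlapped 22.05%, 54.1% and 43.8%. Outside the FOXA2OE FOXA2 list the shares were 8.47%, 50.2% and 34.85% for NCI-H660 JUN and 22.03%, 63.9% and 46.2% for NCI-H660 ATAC. PC3-only regions thus had the lowest share in each of these lists. The class was defined by absence from a LNCaP JUN list, and the FOXA2OE and FOXA2K265R lists come from LNCaP cells. A low share there follows in part from the class rule. Common regions were likewise chosen for being called in both lines. Regions with a CRE were called in the NCI-H660 and FOXA2K265R JUN lists more often than those with a TRE. NCI-H660 JUN overlapped 40 of the 42 common (95.2%), 52 of the 65 LNCaP-only and 82 of the 118 PC3-only regions with a CRE (69.5%), and 49.1%, 28.7% and 7.51% of those with a TRE. The FOXA2K265R list gave 95.2%, 81.5% and 70.3% for the CRE and 43.7%, 36.2% and 4.85% for the TRE. The siFOXA1 list of LNCaP did not share this order, with 28.6% and 18.5% for the CRE and 29.0% and 22.4% for the TRE in common and LNCaP-only regions. After siFOXA2 in PC3, 3 of the 42 common and 7 of the 118 PC3-only regions with a CRE were called again.

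Promoters were 8.62% of all regions of the 3 classes, 8.33% of PC3-only (7.98 to 8.70%), 12.9% of common (11.1 to 15.0%) and 10.6% of LNCaP-only regions (8.74 to 12.7%), and 2.94 to 3.33% of windows moved by 10 kb. With the regions of the FOXA2OE FOXA2 list left out the shares were 8.45%, 19.8% and 13.4%, and common regions exceeded LNCaP-only regions by 6.46 points (2.57 to 10.3), whereas over all regions the difference was 2.36 points (−0.472 to 5.14), an interval that includes 0. Introns held 40.7%, 33.0% and 33.3%, and DNA between genes held 47.4%, 52.2% and 53.6%, of PC3-only, common and LNCaP-only regions. Widths differed more between the lists than between the classes. The median was 255 bp for LNCaP-only regions and 268.5 bp for the LNCaP regions at common sites. It was 317 bp for PC3-only regions and 336 bp for the PC3 regions at common sites. Of the regions, 373 PC3-only and 112 LNCaP-only ones occurred in no list but their own. Among them the LNCaP-only ones held a TRE in 16.96% (11.1 to 24.98%) and the PC3-only ones in 24.9% (20.8 to 29.6%).

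Genes were described by the regions within 50 kb of a start. The starts of all annotated protein-coding transcripts were used, so genes with many starts far apart reached more DNA. Of the 19807 protein-coding genes, 53.7% had a PC3-only region, 5.59% a common region and 4.79% a LNCaP-only region, so that a PC3-only region near a gene says little by itself. The genes with most PC3-only regions were NRP1, a coreceptor of semaphorins and VEGF (21 regions), the potassium channel gene KCNMA1 (19), ANK3 and DST (18 each), both of which encode cytoskeletal linkers, and the forkhead gene FOXP1 (17). The 3 highest-scoring PC3-only regions lay in or nearest to NRP1 and KCNMA1, with scores of 7149 (chr10:33422918-33423412, 51418 bp from the nearest NRP1 start), 6009 (chr10:78923696-78924111, an intron of KCNMA1) and 5497 (chr10:33552997-33553655, a promoter of NRP1), and each held a TRE. No gene had over 3 LNCaP-only regions (DIXDC1, FRG2, RHOV, SPINT1 and VPS18) or over 2 common regions.

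Genes of AP-1 itself had common and PC3-only regions nearby. Of 16 AP-1 subunit and partner genes, 8 had a common region (5.59% of all genes had one), 12 had a PC3-only region (53.7% of all genes) and 0 had a LNCaP-only region (4.79% of all genes), a count that says little in a list of this size. The 8 were JUN, JUND, FOSB, FOSL2, ATF3, BATF3, MAFF and MAFK, and none of their common regions lay in the FOXA2OE FOXA2 list. JUN itself had a common region at its promoter (chr1:59249677-59250072, score 300) that held neither the exact TRE nor the exact CRE. Variants of these words were not counted. JUND, a JUN paralog, had one at its promoter (chr19:18392403-18392820, score 262) with the CRE shown above. ATF3, a stress-induced repressor, had the pair shown in part above, at the promoter (score 321) and 6318 bp upstream (chr1:212732153-212732562, score 720), and FOSL2 had one with a TRE at its promoter (chr2:28615564-28615862, score 458).

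All 10 common regions at these genes were accessible and carried H3K27ac in PC3, and of the 10, 7 held a TRE, 2 held a CRE and 2 were overlapped by vehicle FOXA2. The siFOXA1 JUN list of LNCaP overlapped 8 of them, NCI-H660 JUN 7 and the siFOXA2 JUN list of PC3 4. Of all common regions outside the FOXA2OE FOXA2 list, 98.9% were accessible, 83.0% carried H3K27ac, 57.5% held a TRE and 5.99% a CRE. Vehicle FOXA2 overlapped 49.4% of them, siFOXA1 JUN 27.8%, NCI-H660 JUN 50.2% and siFOXA2 JUN 26.5%. Of the 27 PC3-only regions within 50 kb of AP-1 genes, 26 were accessible, 17 held a TRE, 7 were overlapped by NCI-H660 JUN and 0 by siFOXA1 JUN. For all PC3-only regions outside that list the shares were 97.0%, 51.7%, 8.47% and 0.553%. The count of 0 is near that share, and the class was defined by absence from a LNCaP JUN list. At FOSB, which encodes a FOS paralog, the common region lay at −12045 bp from the start (score 847), in an intron of a neighbouring gene. At MAFK, MAFF and BATF3, whose products are small basic leucine zipper proteins, the common regions had scores of 520, 265 and 230.

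At FOSL1 and JUNB no common region was found. FOSL1 had 5 PC3-only regions, with scores from 116 to 1844, 2 of them promoters, and JUNB had 1 PC3-only region (score 72). FOS and BATF had none of the 3 kinds within 50 kb.

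The luminal and basal gene lists of the prostate had similar counts in each class. Of 20 androgen receptor and luminal genes, 14 had a PC3-only region, 2 a common region and 3 a LNCaP-only region (53.7%, 5.59% and 4.79% of all genes). The common region was a single one shared by the neighbouring keratin genes KRT8 and KRT18 (chr12:53343509-53343872, score 616, TRE). The LNCaP-only regions lay at the kallikrein genes, of which KLK3 encodes the prostate-specific antigen. KLK2, KLK3 and KLK4 shared chr19:51399965-51400239, the region with the TRE shown above, and KLK3 had a further region at −48422 bp from its start that occurred in the LNCaP siNC list alone. Of 5 genes taken as markers of LNCaP, KLK2 and KLK3 had LNCaP-only regions, TMPRSS2 had a PC3-only region, and FKBP5 had neither kind, so not every marker locus of LNCaP carried a LNCaP-only region. All 5 genes taken as markers of PC3 (CD44, VIM, AXL, FOSL1 and PTHLH) had PC3-only regions, and CD44 and VIM had a LNCaP-only region as well. Of all protein-coding genes 53.7% had a PC3-only region, and the paper displayed ChIP-seq peaks of PC3 at FOSL1 and PTHLH. The count of 5 therefore says little about the line. PTHLH, which encodes a hormone-related peptide of bone metastases, had 4 PC3-only regions (scores 129 to 1127). The PC3-only regions of CD44, a cell surface receptor for hyaluronan, had scores from 127 to 1118, and the LNCaP-only one, 37459 bp from the start, was not accessible in PC3. VIM, the gene of the mesenchymal filament protein vimentin, had a PC3-only region with a TRE at its promoter (score 658), and its LNCaP-only region lay 7440 bp from the start and was not accessible in PC3 either. AXL, a receptor tyrosine kinase, had 2 PC3-only regions (scores 462 and 533), both with a TRE.

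Of 20 basal and mesenchymal genes, 17 had a PC3-only region, 3 a common region (ITGB4 and LAMA3 among them) and 4 a LNCaP-only region (CD44, VIM, MET and TGFBI). Among all protein-coding genes the shares were 53.7%, 5.59% and 4.79%. At TGFBI, which encodes a matrix protein, a LNCaP-only region with a TRE (chr5:135394226-135394585) lay within 1 kb of an annotated transcript start. That start need not be the main one of the gene, and 3 PC3-only regions lay within 50 kb. Of 10 genes of the YAP and TEAD group, 9 had a PC3-only region and 0 a common one. At the share of all genes, a count of 0 says little in a list of this size. TEAD1 had a LNCaP-only region with a CRE at its promoter, accessible and with H3K27ac in PC3, beside 5 PC3-only regions elsewhere.

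Of 18 immediate early and stress genes, 14 had a PC3-only region, 4 a common one (DUSP1, KLF6, KLF4 and SRXN1) and 2 a LNCaP-only one (DUSP1 and ZFP36). Among all protein-coding genes the shares were 53.7%, 5.59% and 4.79%, which apply to each list in this paragraph. A count of 0 common or LNCaP-only regions among 10 or 12 genes says little at such shares. DUSP1, a phosphatase that switches off MAP kinases, had a common region with a CRE at its promoter (chr5:172198174-172198453, score 115). SRXN1, an antioxidant enzyme, had one with a TRE at its promoter (score 710). Of 12 inflammatory genes, among them IL6 and CXCL8, 10 had a PC3-only region, 0 a common one and 1 (ICAM1) a LNCaP-only one. CXCL8, a chemokine, had 5 PC3-only regions (scores 148 to 313), and IL6, a cytokine, had 1 (score 250). Of 10 genes named in the study or its supplementary tables, 9 had a PC3-only region and 0 a common or a LNCaP-only one, and of the FOXA genes FOXA1 had 4 PC3-only regions (scores 241 to 331) and FOXA2 had 2, one of them at its promoter (score 76).

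**Figure D5:**
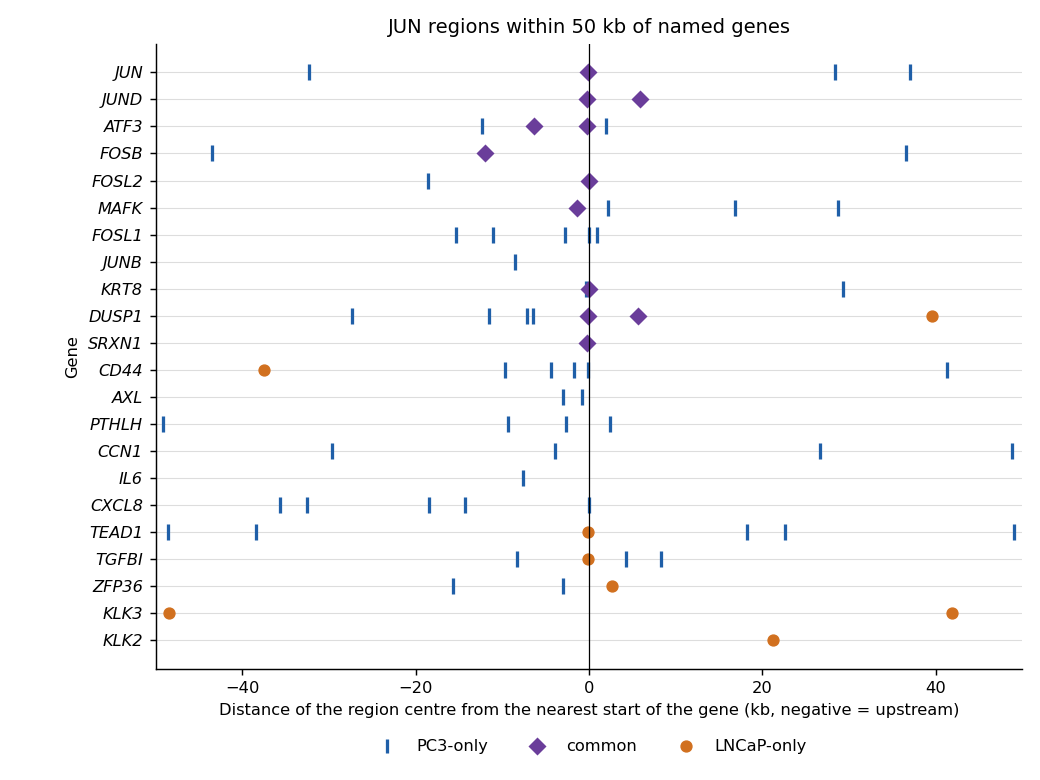
Position of JUN regions around 22 named genes, as the distance of the region centre from the nearest start of the gene (x axis, kb, negative upstream) for each gene (y axis), marked by class. Any annotated transcript start of a gene counts, also one that is not its main start. Common regions (diamonds) lie at such starts of JUN, JUND, ATF3, FOSL2, KRT8, DUSP1 and SRXN1, and LNCaP-only regions (circles) at those of TEAD1 and TGFBI. PC3-only regions (ticks) appear at genes of nearly every kind.

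The 3 highest-scoring common regions had scores of 2731 (the GULP1 intron), 2437 (intergenic, 51348 bp from AZIN1, with a TRE) and 2338 (chr13:111617587-111618046, intergenic, with a TRE). Since the LNCaP siNC list has no score, LNCaP-only regions were ranked by the score of the siFOXA1 region that overlapped them. The highest were 5671 (chr22:18717863-18718207), 3159 (the repeat near LCOR) and 2793 (chrY:58853780-58854875), and the first and the last lay in the FOXA2OE FOXA2 list. These 3 were found in 14, 13 and 5 of the 22 lists.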

How the data were processed

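The authors performed ChIP-seq with crosslinking in 1% formaldehyde, sonication and ThruPLEX libraries per the labels. Their processing notes name BWA 0.7.17-r1188, FastQC 0.11.9, SAMtools 1.9 and MACS2 2.1.4, with paired-end reads aligned to hg19 and regions called by MACS2; the settings of the caller, its controls and pooling of libraries were not given in the sources used here. Each deposited list gives intervals on hg19, and 20 of 22 carry a score deposited by the authors as a whole number, read here as 10 times −log10 q because its minimum was 13 in 17 lists.

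Overlaps of at least 1 bp, recurrent places (17 of 22 lists), motifs within 100 bp of the centre in the GRCh37 genome, and places after GENCODE 44 were computed with Python 3.11.15, numpy 2.4.6, pandas 2.3.3 and pysam 0.24.0, and drawn with matplotlib 3.10.9. With 1 list for each line no test was possible, and shares carry counting intervals. The overlap and motif counting was tested on simulated regions. The classes, gene lists and motifs were chosen with earlier results of these data known. Regions named are the 3 of highest score in each class (for LNCaP-only regions, the score of the siFOXA1 region), those picked afterwards are named as such, the genes named are the 5 with most regions of a class and the members of the gene lists. Alternatives changed the overlap rule, the recurrent places, score minimums, motif windows, promoter widths, gene reach and the FOXA2 list; the split by the FOXA2OE FOXA2 list and the omission of chromosome Y were added after seeing the data. Values of some members of the gene lists are not reported here.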

Additional observations from a re-analysis of the deposited data

How the results depend on the processing

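Apart from the gene lists, 35 alternative values moved by less than their interval, 61 moved further and 2 reversed, so most main values depended on a choice in size. For the gene lists 14 of 90 counts moved. The LNCaP list's common share (54.5%) was 49.6% with overlap of 50% of both regions, 61.6% with nothing removed, 36.6% with places of 11 or more lists removed, 51.3% and 40.8% with PC3 scores of at least 50 and 100, 9.13% against as many top PC3 regions, 47.3% for the siFOXA1 list in its place, 63.9% for regions also in that list and 49.96% outside the FOXA2OE FOXA2 list. The PC3 list's share (4.71%) was 4.30% with overlap of 50%, 6.17% with nothing removed, 2.22% with places of 11 or more lists removed, 5.15% at scores of at least 100, 9.13% for the top regions, 3.16% against the siFOXA1 list, 2.24% against regions in both LNCaP lists and 3.08% outside the FOXA2OE FOXA2 list.

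The values in this paragraph are differences in points. With overlap of 50% of both regions, PC3-only minus LNCaP-only was 39.4 for ATAC, 44.7 for H3K27ac and 19.3 for FOXA2, and common minus LNCaP-only was 29.7 for ATAC and 41.1 for H3K27ac. With scores of at least 100 it was 52.1 for ATAC (PC3-only minus LNCaP-only) and 39.6 for H3K27ac (common minus LNCaP-only). With places of 11 or more lists removed, PC3-only minus LNCaP-only was 52.6 for H3K27ac and 26.0 for FOXA2, common minus LNCaP-only was 39.0 for ATAC and 27.3 for the TRE, and common minus PC3-only was 4.57 for FOXA2. Other FOXA2 lists gave PC3-only minus LNCaP-only values of 7.54 (C12), 7.28 (ORY1001), 47.4 and 44.02 (the other ChIPs), and common minus PC3-only values of 30.9, 31.7, −20.8 and −18.3, so that the latter difference reversed in the other ChIPs. In windows of 50 bp, of 250 bp and over whole regions, PC3-only minus LNCaP-only was 24.6, 36.3 and 38.3 for the TRE and 3.40, 10.8 and 16.1 for the forkhead motif, and common minus LNCaP-only was 22.1 for the TRE over whole regions. The CRE difference of LNCaP-only and PC3-only regions was 30.8 at promoters and 3.52 elsewhere. Common minus PC3-only was 2.54 for promoters of 5 kb, 31.9 for regions called after siFOXA2 when standardised by score decile, and 25.02 for the FOXA2K265R JUN list, for which LNCaP-only minus PC3-only was 28.4.

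Outside the FOXA2OE FOXA2 list, a choice made after seeing the data, PC3-only minus LNCaP-only was 28.4 points for FOXA2, 28.3 for the TRE and 2.06 for the forkhead motif. Common minus LNCaP-only was 44.8 for ATAC, 54.6 for H3K27ac and 34.2 for the TRE, and common minus PC3-only was 6.98 for FOXA2, 11.4 for promoters, 16.7 for regions called after siFOXA2 (5.16 when also standardised) and 19.4 for FOXA2OE JUN. LNCaP-only minus PC3-only was 8.58 for the CRE and 4.92 for promoters. With a reach of 10 kb, 7 AP-1 genes had a PC3-only and 5 a common region, and with 100 kb 1 had a LNCaP-only region. The causes of these shifts were not tested. No paired analysis was possible because each line has 1 list, and the unknown depth limits what a missing region says.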
